A study of Mus musculus with 18 samples.

Results

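Loss of Zfp697 in muscle was examined at the point where weight returns to a disused calf muscle. The comparison set 3 libraries labelled Zfp697 mKO, reloading 3 days against 3 labelled flox/flox, reloading 3 days, of 18 libraries in the study. All came from the gastrocnemius, the large calf muscle, of female C57BL/6 mice. Flox/flox mice carry a Zfp697 gene flanked by recombination sites and, without a recombinase, keep it intact. In mKO mice the gene is, by the labels, knocked out in skeletal muscle. The Cre line, the deleted exons, the age of the mice and the length of unloading that came before reloading are not given in the sources used here. The same genotypes were also sequenced as cage controls and after 10 days of unloading, 3 libraries each. These 12 libraries serve to set the reloading difference beside them. They also enter the fit: all 18 libraries share the estimate of spread behind each p-value.

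Zfp697 codes for a zinc finger protein that the study's title calls an RNA-binding protein. In hindlimb unloading the hind legs bear no weight and the muscle wastes. When weight returns, fibres are strained and some are injured, monocytes and macrophages enter and clear debris, fibroblasts lay down matrix, endothelial cells respond, and satellite cells, the muscle stem cells, divide and fuse. Bulk RNA from the whole muscle holds all of these cells beside the fibres. Fewer cells of a type and less RNA per cell therefore cannot be told apart in any value below.

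The 6 reloading libraries held 45069595 to 51273957 counts, and 17833 genes were tested. Levels are in CPM, counts scaled to a common library size after TMM scaling, which corrects for differences in RNA composition. A difference is a log2 fold change, mKO minus flox, with its standard error. A gene was called at an adjusted p under 0.05 over all genes tested. The replicates did not separate evenly. On the first principal component of the 6 libraries (37.2% of the variance) the flox libraries stood at -31.7, -34.9 and -14.6, mKO replicates 1 and 3 at 36.7 and 38.9, and mKO replicate 2 between them at 5.59. Results that rest on mKO replicate 2 are given with and without it. The muscle label fits the fibre gene Ckm (muscle creatine kinase), at 7705 to 11420 CPM in these libraries.

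Zfp697 itself was low in every library. It stood at 2.79, 2.33 and 2.57 CPM in the flox libraries and at 1.6, 1.95 and 1.47 CPM in the mKO libraries, from 126 to 137 and 70 to 103 counts. All 3 mKO libraries were below all 3 flox libraries, and mKO replicate 2 was the highest of them. The difference of -0.61 ± 0.25 did not pass (adjusted p = 0.172). The genotype difference of this gene was 0.01 ± 0.26 at control and 0.01 ± 0.25 at unloading. In GRCm38 the gene spans bases 98382461 to 98753812 of chromosome 3 and is read from the plus strand. Counts were summed over the whole gene, so reads outside a deleted part, or from cells that keep the gene, would be included, and the deletion itself was not measured.

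Of 17833 genes 875 were called (4.91%), with 686 lower in mKO (3.85%) and 189 higher (1.06%). The lower genes differed by more: their median difference was -0.87, against 0.37 for the higher genes. More than 2-fold differences were found for 291 lower and 8 higher genes, and more than 4-fold differences for 49 and 2. The CPM ranges of the groups did not overlap for 675 of the lower and 171 of the higher genes called, while over all genes tested 12.8% were lower and 9.58% higher without overlap. In mKO replicate 2 the called lower genes stood at a median of -0.67 from the flox mean, against -0.84 and -0.98 in replicates 1 and 3. For the higher genes these values were 0.25, 0.42 and 0.47. The split depends on scaling: TMM factors were 1.07 to 1.1 in flox and 0.952 to 1.05 in mKO, and scaling by total counts alone moved the median of all genes to -0.13 and called 36 genes higher and 1449 lower. A fit of only the reloading libraries called 23 genes higher and 420 lower. Without mKO replicate 2 there were 669 higher and 961 lower genes. Fewer were called in total without mKO replicate 3 (127), flox replicate 2 (185), mKO replicate 1 (364) or flox replicate 1 (521).

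**Figure D1:**
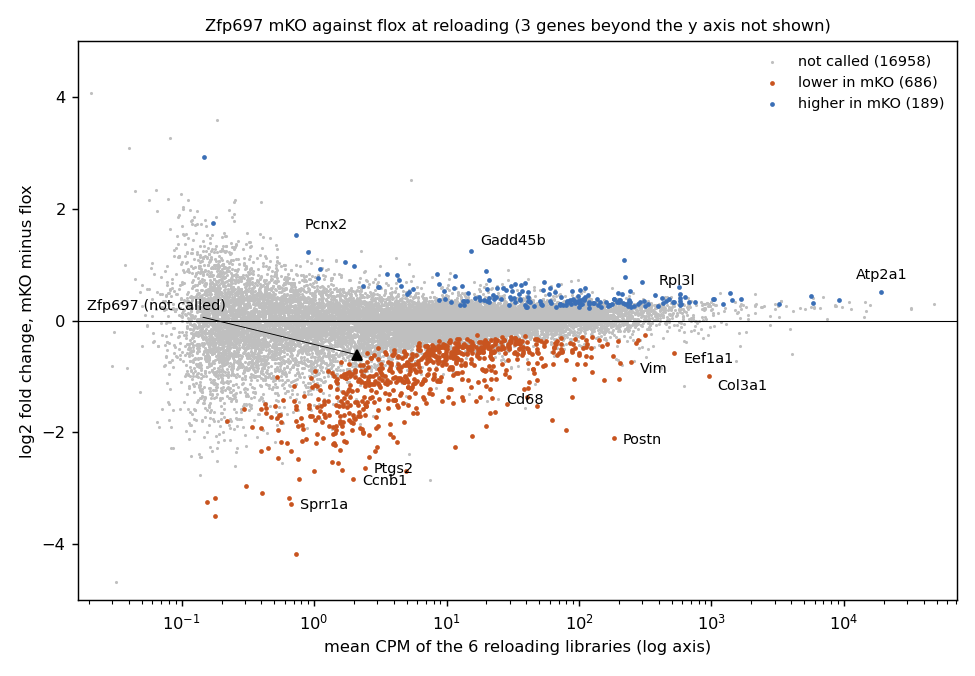
Log2 fold change of mKO minus flox at reloading (y axis) against mean CPM of the 6 libraries (x axis, log scale) for the genes tested, with called genes in colour and 3 genes beyond the axis left out (Ifi208, Skor1 and Gm17828). The 686 lower genes spread down to large differences at low and medium levels, while most of the 189 higher genes differ by less (median 0.37), 8 of them by more than 2-fold.

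Genes of cell division made up the clearest group of lower genes. Of 34 mitosis genes 31 were lower (91.2%, against 3.85% of all genes) and none higher. All 34 were lower without overlap between the groups, against 12.8% of all genes. The list's median difference was -1.77, with members from -2.83 to -0.29, against a median of 0.005 over all genes tested. Summed over the list, the level was 154.1 to 204.3 CPM in flox and 54.04 to 71.01 CPM in mKO, so mKO libraries were low in every replicate but above the 32.03 to 45.53 CPM of the control groups. Of 32 DNA replication genes 16 were lower (50%, against 3.85% of all genes) and none higher, with a median of -0.62.

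Prc1, which bundles microtubules at the spindle midzone, stood at 8.61, 8.71 and 8.03 CPM in flox and at 3.08, 2.73 and 2.25 CPM in mKO. Its difference was -1.65 ± 0.19 (adjusted p = 0.000408). The replicates lay close together in each group. Anln, the anillin of the cleavage furrow, was at 9.12, 10.5 and 8.95 CPM in flox and 4.21, 3.49 and 3.42 CPM in mKO (-1.36 ± 0.16, adjusted p = 0.000408). Ccna2 codes for cyclin A2, which acts in S phase and at entry to mitosis. It was at 7.49, 7.43 and 4.2 CPM in flox and 2.01, 1.53 and 0.983 CPM in mKO (-2.08 ± 0.25, adjusted p = 0.000408). Flox replicate 3 was the low flox library for this gene, as for the mitosis list as a whole. It was above every mKO library for Ccna2, which was a condition for naming genes by smallest p.

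Ccnb1, cyclin B1, had the largest difference of the mitosis list. It stood at 4.02, 3.85 and 2.45 CPM in flox and at 0.274, 0.303 and 0.86 CPM in mKO (-2.83 ± 0.43, adjusted p = 0.00165); here mKO replicate 3 was the one nearest to flox. Cenpf, a kinetochore protein, was at 4.65, 5.63 and 4.16 CPM in flox and 0.868, 1.23 and 0.738 CPM in mKO (-2.34 ± 0.39, adjusted p = 0.00266). Stmn1, a tubulin-binding protein of dividing cells, fell from 8.93 to 11.3 CPM in flox to 3.27 to 4.12 CPM in mKO (-1.39 ± 0.17). Melk at -2.69 ± 0.68 and the kinase gene Aurkb at -2.32 ± 0.47 were called too. Members not called were Hmmr, Ube2c and Aurka, at -1.84, -0.52 and -0.29. In the replication list Gins2, of the replicative helicase complex, was at -1.74 ± 0.35, the initiation factor Mcm10 at -1.72 ± 0.46 and the chromatin assembly subunit Chaf1b at -1.54 ± 0.31. Helicase genes of the same list were uneven: Mcm5 was at -1.47 and called, and Mcm2 at -0.14 and not called.

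The mitosis count was 30 without mKO replicate 2, 20 without flox replicate 1, 14 without flox replicate 2 and 11 without mKO replicate 3, while the list median stayed between -1.9 and -1.64 in all alternatives tried. The replication count was 15 without mKO replicate 2 and 7 without either flox replicate 2 or mKO replicate 3. Without mKO replicate 3 the call of Aurkb was lost (adjusted p = 0.0722). Melk was lost without any of 4 libraries, Gins2 and Chaf1b without either of 2, and Mcm10 without any of 5, flox replicate 2 and mKO replicate 3 among them in each case (adjusted p up to 0.176, 0.065, 0.0709 and 0.202).

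Promoters of mitosis genes are known to carry the CCAAT box, bound by NF-Y, and the cell cycle homology element TTTGAA. Both were searched on both strands of the 250 bases before the start in the RefSeq promoter table (GRCm38.p6), of which 27025 genes had a window. CCAAT was present for 24 of 31 mitosis genes matched (77.4%), for 14 of 25 DNA replication genes (56%) and for 34.5% of all genes. TTTGAA was present for 9 of 31 mitosis genes (29%) and for 16.3% of all genes. The 150 bases before the start are shown for 3 lower genes to let the motif be seen, with each match in capitals and the gene's strand read 5′ to 3′. They are Prc1 at chr7:80294301-80294450 (plus strand), Cenpf at chr1:189688087-189688236 (minus strand) and Cdc20 at chr4:118437344-118437493 (minus strand).
Prc1: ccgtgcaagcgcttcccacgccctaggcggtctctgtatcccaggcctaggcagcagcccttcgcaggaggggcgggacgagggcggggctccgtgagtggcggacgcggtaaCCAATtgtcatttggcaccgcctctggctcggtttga
Cenpf: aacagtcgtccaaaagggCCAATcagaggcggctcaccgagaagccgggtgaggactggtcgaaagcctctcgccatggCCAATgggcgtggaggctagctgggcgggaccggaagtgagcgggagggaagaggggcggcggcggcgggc
Cdc20: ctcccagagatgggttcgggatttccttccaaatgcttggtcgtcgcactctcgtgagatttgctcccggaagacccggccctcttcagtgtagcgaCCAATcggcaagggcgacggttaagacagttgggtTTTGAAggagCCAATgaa
Cenpf and Cdc20 each hold 2 CCAAT matches, and in Cdc20 a TTTGAA match stands 4 bases before the second of them without overlap. A match is a description of the letters only.

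Macrophage genes were lower next. Of 24 macrophage and monocyte markers 15 were lower (62.5%, against 3.85% of all genes) and none higher, with a median of -1.10. Of the 24 markers 21 were lower without overlap, against 12.8% of all genes. None of the 24 was at 0 in these libraries. Summed over the list, the level was 346.4 to 506.3 CPM in flox and 176.8 to 242.7 CPM in mKO. Control libraries of both genotypes were at 143.8 to 217.7 CPM, so the mKO reloading libraries lay near the control range, with mKO replicate 2 the highest of the 3. The part of these markers in the other differences of inflammatory genes was not tested.

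Cd68, a lysosomal protein of macrophages, stood at 35.8, 39 and 31.2 CPM in flox and at 10.4, 17.5 and 6.41 CPM in mKO (-1.63 ± 0.26, adjusted p = 0.00225). Cx3cr1, the fractalkine receptor of monocytes, was at 3.57, 4.24 and 2.41 CPM in flox and 0.686, 1.57 and 0.86 CPM in mKO (-1.70 ± 0.35, adjusted p = 0.0091). In both genes mKO replicate 2 was nearest to flox without reaching it. Adgre1, which codes for F4/80, was lower by -1.37 ± 0.26, the chemokine receptor Ccr2 by -1.18 ± 0.26, and Csf1r, the receptor for macrophage growth factor, by -0.95 ± 0.20. Among genes known from resident macrophages, Mrc1 (-0.80 ± 0.14) and Cd163 (-0.87 ± 0.20) were called, and Lyve1 (-0.66 ± 0.22) and Timd4 (-0.76 ± 0.33) were not. These 7 genes were chosen from the list after their values were seen.

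Complement and Fc receptor genes serve the uptake of tagged debris. Of 22 members 15 were lower (68.2%, against 3.85% of all genes) and none higher, with a median of -1.08. Several also belong to the macrophage list. Fcgr1, the high-affinity IgG receptor, was at 2.24, 3.32 and 2.11 CPM in flox and 0.686, 0.89 and 0.594 CPM in mKO (-1.81 ± 0.33, adjusted p = 0.00482). Fcgr2b, the inhibitory IgG receptor, was at 14.4, 19.3 and 15.3 CPM in flox and 4.07, 8.26 and 5.31 CPM in mKO (-1.47 ± 0.27). Fcgr4 differed by -2.95 ± 0.55 on 85 counts in flox and 10 in mKO. Cfb, complement factor B, was at -1.58 ± 0.44. The C1q chains C1qa and C1qb were at -1.17 and -1.22 and called, while C3, the central complement protein, was at -0.44 and not called.

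The MHC class II list had 4 lower members of 9 tested (44.4%, against 3.85% of all genes) and none higher (median -0.81). The 4 were H2-Eb1, H2-Aa, H2-Ab1 and Cd74. They code for class II chains and their chaperone. H2-Eb1 stood at 26.2, 32.5 and 29 CPM in flox and 14.2, 15.7 and 12.7 CPM in mKO (-1.04 ± 0.21, adjusted p = 0.00804). H2 genes are close copies of each other, so their values are uncertain where the counting split reads. Of 30 lysosome genes 10 were lower (33.3%, against 3.85% of all genes) and none higher (median -0.23). Ctss, a protease of antigen-presenting cells, was at 22.3, 29.5 and 21.9 CPM in flox and 9.37, 11.5 and 6.29 CPM in mKO (-1.44 ± 0.21, adjusted p = 0.00138). The protease gene Lgmn (-0.77 ± 0.13) and the hydrolase genes Glb1 (-0.81 ± 0.16) and Gusb (-0.70 ± 0.13) were lower too.

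These counts moved with single libraries. For macrophage markers the count was 17 without mKO replicate 2, 7 without mKO replicate 1, 5 without flox replicate 2 and 4 without mKO replicate 3. For complement it was 17, 8, 7 and 5 in the same order, for MHC class II 6, 2, 0 and 0, and for lysosome genes 8, 8, 4 and 3. Cd68, Ctss, Lgmn and Fcgr4 were called without each single reloading library. Cx3cr1, Fcgr1, Fcgr2b, H2-Eb1, H2-Aa, H2-Ab1, Cd74, Glb1, Gusb and Cfb lost the call without mKO replicate 3, most of them also without flox replicate 2, at an adjusted p of up to 0.0722 for Cx3cr1, 0.051 for Fcgr1 and Fcgr2b, 0.0642 for H2-Eb1 and 0.292 for Cfb.

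Signals of inflammation were lower in part. Of 31 cytokine, chemokine and NF-kB genes tested (of 41 listed), 8 were lower (25.8%, against 3.85% of all genes) and none higher. The median was -0.47. Ptgs2, the inducible cyclooxygenase, stood at 2.26, 6.41 and 3.85 CPM in flox and 0.526, 0.985 and 0.492 CPM in mKO (-2.63 ± 0.44, adjusted p = 0.00272). Flox replicate 2 was the high library. Every flox library was above every mKO library, which was a condition for naming genes by size of the difference. Il1b, which codes for interleukin-1 beta, had 12, 25 and 15 counts in flox and 0, 2 and 2 in mKO (-3.49 ± 0.85, adjusted p = 0.0244), too few for a firm fold. The monocyte chemokines Ccl8 (-2.03 ± 0.48) and Ccl2 (-1.71 ± 0.45) and the galectin gene Lgals3 (-1.44) were lower as well. Il6, at -1.77 ± 0.62, did not pass (adjusted p = 0.11), nor did Cxcl10 at -1.15 ± 0.41 (adjusted p = 0.118), and Tnf stood at 0.49 ± 0.71. Transcripts of the NF-kB subunits Rela and Nfkb1 were at -0.20 and -0.02 and not called. The count was 10 without mKO replicate 2, 3 without mKO replicate 1, and 2 without either flox replicate 2 or mKO replicate 3. Without either of the last 2 libraries Il1b, Ccl8 and Ccl2 were not called (adjusted p up to 0.123, 0.142 and 0.159).

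Of 40 interferon response genes 7 were lower (17.5%, against 3.85% of all genes) and none higher, with a median of -0.37. Of the 40 genes 24 were lower without overlap, against 12.8% of all genes. Oas2, an antiviral oligoadenylate synthetase, stood at 7.41, 9.23 and 6.57 CPM in flox and 4.09, 4.45 and 3.67 CPM in mKO (-0.93 ± 0.17, adjusted p = 0.00481). Isg15, a ubiquitin-like protein, was at 3.16, 3.3 and 2.41 CPM in flox and 1.39, 1.36 and 1.56 CPM in mKO (-1.04 ± 0.25, adjusted p = 0.0245). Oas3 was at 0.755, 1.39 and 1.11 CPM in flox and 0.389, 0.455 and 0.246 CPM in mKO (-1.57 ± 0.39). Ifi27l2a was at -0.73 ± 0.20. Guanylate-binding protein genes went the other way without a call, with Gbp4 at 0.34 and Gbp5 at 0.23. The count was 10 without mKO replicate 2 and 1 without mKO replicate 3. Oas2 was called without each library, and Isg15, Oas3 and Ifi27l2a each lost the call without 4 or more (adjusted p up to 0.122, 0.171 and 0.196).

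The interferon-stimulated response element holds paired GAAA units, searched here as GAAA followed, after any 2 bases, by a second GAAA, on both strands of the same windows. It was present for 14 of 28 interferon genes matched (50%) and for 3.04% of all genes. Only 3 of the called lower genes had a window, so no comparison between called and other members was made. The 150 bases before the start are shown for Isg15 (chr4:156200819-156200968, minus strand) and Oas3 (chr5:120777660-120777809, minus strand), with matches in capitals.
Isg15: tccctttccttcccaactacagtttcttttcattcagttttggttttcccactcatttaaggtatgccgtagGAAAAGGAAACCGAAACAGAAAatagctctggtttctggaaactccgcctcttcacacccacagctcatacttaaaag
Oas3: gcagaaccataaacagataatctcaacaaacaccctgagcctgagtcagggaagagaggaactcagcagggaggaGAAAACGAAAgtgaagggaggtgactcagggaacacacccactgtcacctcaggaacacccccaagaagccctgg
Isg15 holds 3 matches that overlap each other, and Oas3 holds 1.

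**Figure D2:**
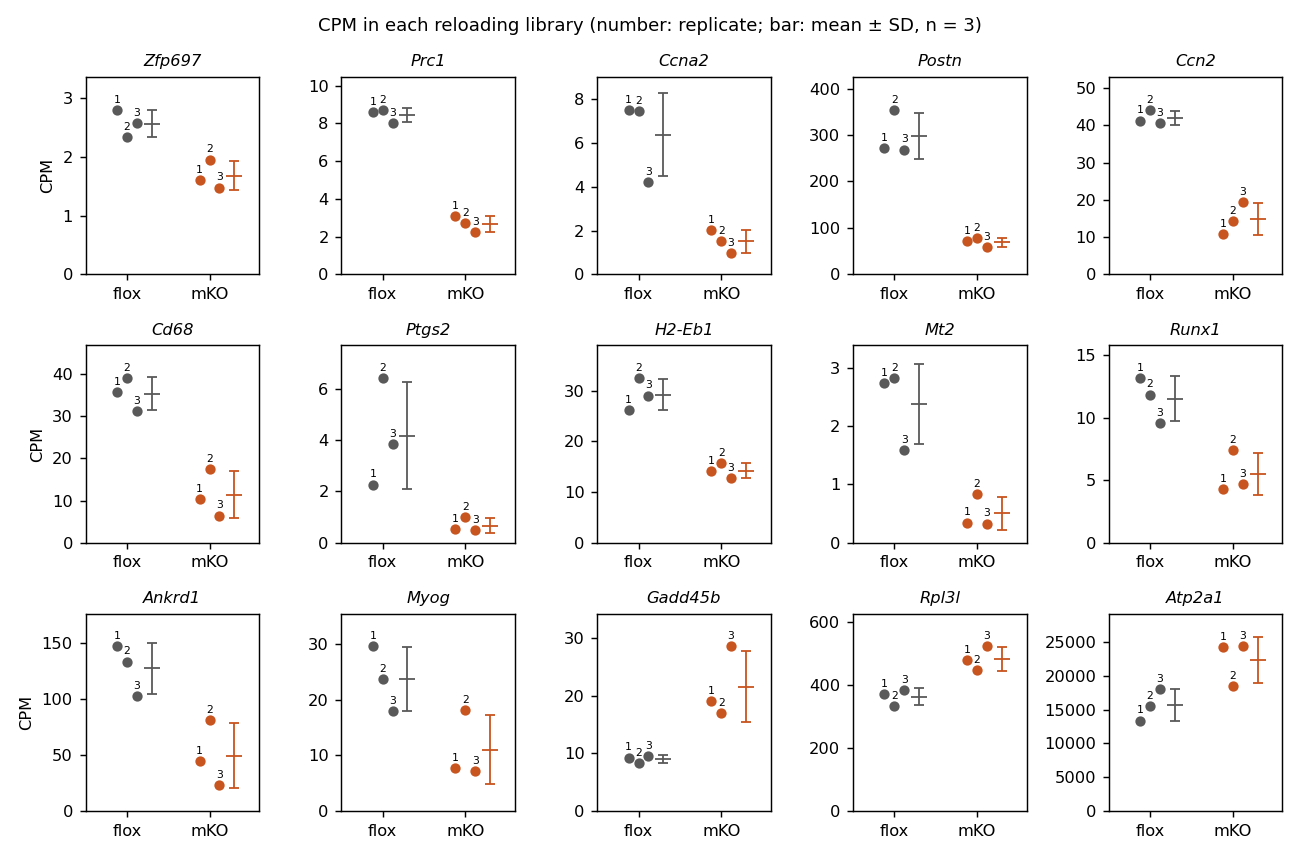
CPM of 15 genes in each of the 6 reloading libraries, flox and mKO, with the mean and SD of each group at the side (n = 3) and y axes that start at 0. The groups overlap for Myog only, where mKO replicate 2 (18.1 CPM) lies above flox replicate 3 (17.9 CPM), and that replicate is the mKO library nearest to flox for most of the genes.

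Part of the matrix genes were lower in mKO. Of 40 extracellular matrix genes 11 were lower (27.5%, against 3.85% of all genes) and none higher, with a median of -0.47. Postn, the matrix protein periostin, stood at 272, 354 and 268 CPM in flox and at 71.8, 77.5 and 58.5 CPM in mKO (-2.10 ± 0.30, adjusted p = 0.00138). Tnc, tenascin C, was at 80.4, 126 and 82.6 CPM in flox and 24.3, 39.1 and 20.8 CPM in mKO (-1.78 ± 0.29, adjusted p = 0.00236). Lox, a collagen cross-linking enzyme, was at 72.6, 87.8 and 53.3 CPM in flox and 19.2, 35.7 and 19.1 CPM in mKO (-1.53 ± 0.22, adjusted p = 0.00138). The protease inhibitor gene Timp1 was at -1.32 ± 0.28 and the fibrillar collagen gene Col3a1 at -0.99 ± 0.25.

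The chains of type I collagen, Col1a1 and Col1a2, were at -0.20 and -0.16 and not called, and the proteoglycan gene Dcn was at 0.05. Cthrc1, a secreted protein of activated fibroblasts that is outside the list, was at 6.73, 8.17 and 6.02 CPM in flox and 1.35, 1.95 and 1.35 CPM in mKO (-2.16 ± 0.26, adjusted p = 0.000408). Vim, the intermediate filament of mesenchymal cells and leukocytes, was at 308, 308 and 304 CPM in flox and 173, 209 and 168 CPM in mKO (-0.74 ± 0.10, adjusted p = 0.000926). Beside this, 3 of 15 fibro-adipogenic progenitor markers were lower (20%, against 3.85% of all genes). The 3 were Mfap5, Ly6a and Cd34, the last at -0.28 ± 0.07. The list's median was -0.25, with 10 of 15 members below 0. Their summed level, set mostly by the abundant members, was 1802 to 2158 CPM in flox and 2125 to 2165 CPM in mKO. Their mean log2 level relative to flox controls was -0.10, 0.16 and 0.00 in flox and -0.16, -0.11 and -0.14 in mKO, lower in mKO by a narrow margin. The part of these cells in the matrix result was not tested. The matrix count was 16 without mKO replicate 2, 7 without either mKO replicate 1 or flox replicate 2, and 6 without mKO replicate 3. Postn, Tnc, Lox, Cthrc1 and Vim were called without each library, Timp1 was lost without any of 3 libraries (adjusted p up to 0.0846) and Col3a1 without any of 4 (up to 0.183). The 3 progenitor markers lost the call without flox replicate 2 or mKO replicate 3, at an adjusted p of up to 0.198.

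In the list of TGF-beta, BMP and activin signalling, 4 of 27 genes were lower (14.8%, against 3.85% of all genes). The median was -0.07. Those described here code for proteins of the extracellular space. Ccn2, connective tissue growth factor, was at 41.3, 44.1 and 40.7 CPM in flox and 10.8, 14.4 and 19.4 CPM in mKO (-1.50 ± 0.26, adjusted p = 0.00373), where mKO replicate 3 was nearest to flox. Ccn1 (-1.22 ± 0.26) and the latent TGF-beta binding protein Ltbp2 (-1.44 ± 0.29) were lower too. Ccn2 was called without each library, while Ccn1 and Ltbp2 were lost without flox replicate 2 or mKO replicate 3, among others (adjusted p up to 0.0843 and 0.0632). The count of this list was 7 without mKO replicate 2 and 2 without either of flox replicate 2 and mKO replicate 3.

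AP-1 and immediate early genes had a median of -0.58, with 4 of 24 lower (16.7%, against 3.85% of all genes) and none higher. Egr3 was at 3.65, 8.56 and 3.87 CPM in flox and 1.69, 2.2 and 1.56 CPM in mKO (-1.56 ± 0.35), and Egr2 at -1.41 ± 0.30. Egr2 also stands in the Schwann cell list as a myelin regulator. Pmp22, an abundant myelin gene, was at 0.14 ± 0.17 and not called. Klf6 at -0.60 ± 0.13 and Fosl2 at -0.58 ± 0.12 were the other lower genes. All 4 lost the call without flox replicate 2 or mKO replicate 3 (adjusted p up to 0.138), and the count was 7 without mKO replicate 2.

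**Figure D3:**
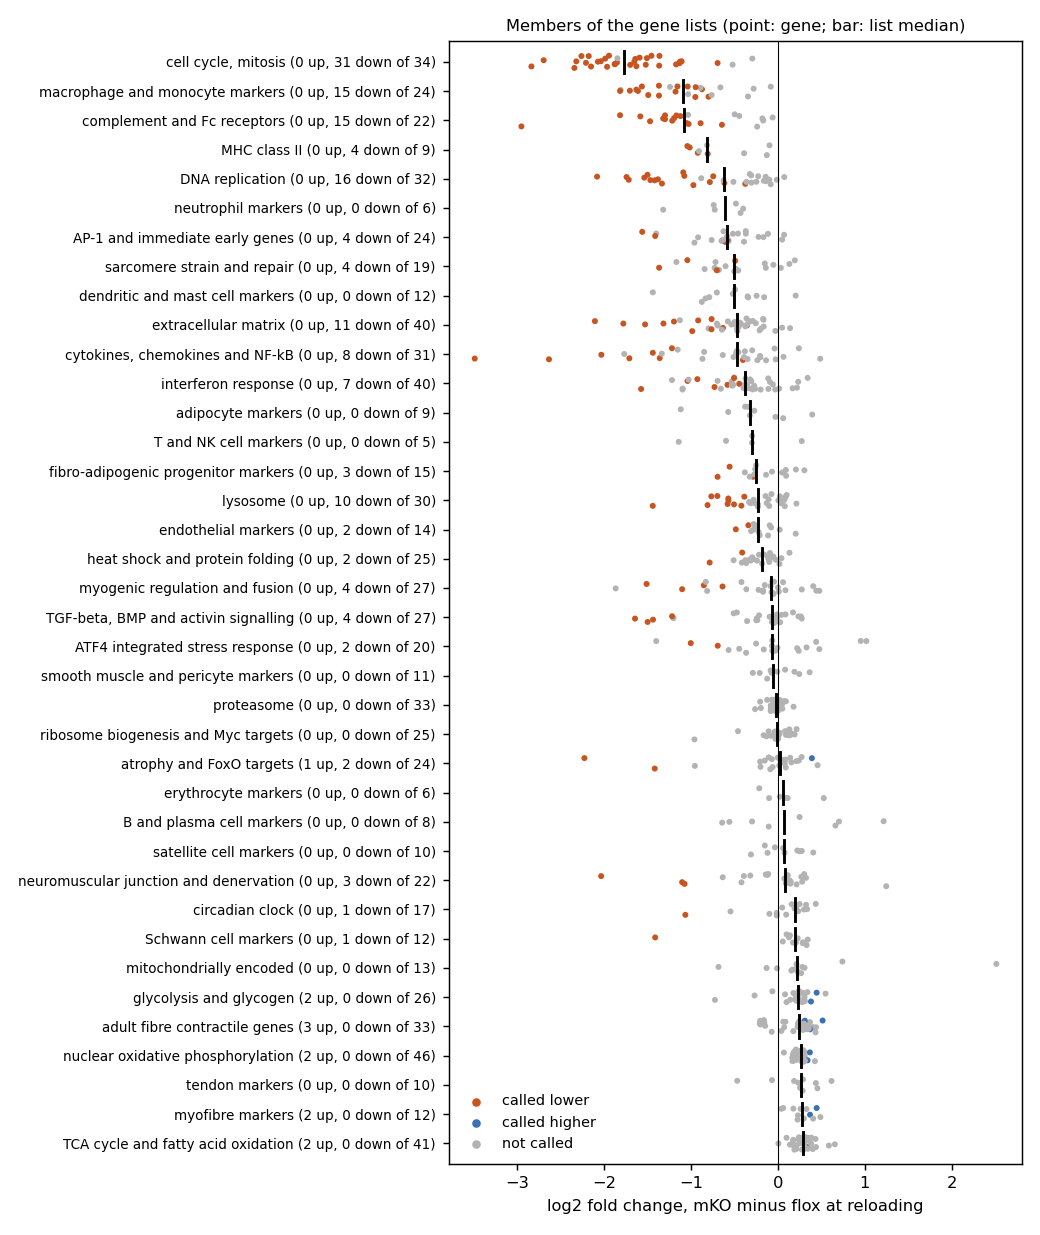
Log2 fold change of mKO minus flox at reloading (x axis) for each tested member of 38 gene lists (rows, ordered by median), with called genes in colour and a bar at the list median. Mitosis, macrophage and complement genes lie far to the left, and nuclear oxidative phosphorylation genes form a narrow cluster right of 0.

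Genes tied to muscle repair, whichever cells they came from, were lower for some members only. Of 27 genes of myogenic regulation and fusion 4 were lower (14.8%, against 3.85% of all genes) and none higher (median -0.08). Mymk, the membrane protein that drives myoblast fusion, was at 2.49, 3.24 and 2.61 CPM in flox and 1.05, 1.18 and 0.697 CPM in mKO (-1.51 ± 0.40, adjusted p = 0.0345). Myog, the transcription factor myogenin, was at 29.5, 23.6 and 17.9 CPM in flox and 7.7, 18.1 and 7.19 CPM in mKO (-1.10 ± 0.25, adjusted p = 0.0174). The groups overlapped for Myog, and without mKO replicate 2 its difference was -1.67 (adjusted p = 0.000201). Itga7, the laminin receptor subunit of fibres, was at 257, 210 and 197 CPM in flox and 135, 170 and 122 CPM in mKO (-0.64 ± 0.12), and Tnnt2, the cardiac troponin T expressed in immature fibres, at -0.85 ± 0.18.

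Satellite cell markers and the genes Myod1 and Myh3 did not pass. Pax7, the satellite cell factor, was at 0.41 ± 0.21, Myod1 at -0.07 ± 0.28 and embryonic myosin Myh3 at -0.81 ± 0.41 (adjusted p = 0.285). Of 10 satellite cell markers none was called, with a median of 0.07. The myogenic count was 4 without mKO replicate 2, 2 without flox replicate 1 or mKO replicate 1, 1 without flox replicate 2 and 0 without mKO replicate 3, and no gene of the 4 was called in all of these fits (adjusted p up to 0.193 for Mymk, 0.122 for Myog, 0.0577 for Itga7 and 0.063 for Tnnt2).

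Sarcomere strain and repair genes respond to stretch and membrane damage. Of 19 such genes 4 were lower (21.1%, against 3.85% of all genes) and none higher (median -0.50). Ankrd1, a titin-binding strain sensor, was at 146, 133 and 102 CPM in flox and 44.4, 80.8 and 22.8 CPM in mKO (-1.37 ± 0.36, adjusted p = 0.0355). The list's mean level overlapped between groups: relative to flox controls it was 1.61, 1.5 and 1.23 in flox and 0.88, 1.3 and 0.47 in mKO, on a log2 scale. Mustn1 was at -1.04 ± 0.28, and the membrane repair annexins Anxa2 and Anxa1 at -0.70 ± 0.14 and -0.49 ± 0.11. Csrp3, a Z-disc protein, was at -1.17 ± 0.58 and did not pass (adjusted p = 0.279). The count was 5 without mKO replicate 2 and 0 without flox replicate 2 or mKO replicate 3, and none of these 4 genes was called in every such fit (adjusted p up to 0.176).

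Of 22 neuromuscular junction and denervation genes 3 were lower (13.6%, against 3.85% of all genes), with a median of 0.08. Runx1, a factor induced in denervated muscle, was at 13.1, 11.8 and 9.58 CPM in flox and 4.3, 7.39 and 4.69 CPM in mKO (-1.07 ± 0.21), and lost the call without mKO replicate 3 (adjusted p = 0.0603). Myog, described above, is in this list as well. The fetal acetylcholine receptor subunit Chrng was at -0.63 ± 0.47 and not called. The sign of this list's median turned negative, to -0.05, both with total counts and without mKO replicate 2.

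The atrophy and FoxO list had 2 lower genes of 24 (8.33%, against 3.85% of all genes) and 1 higher (4.17%, against 1.06%). The list's median was 0.02. The 2 lower genes were metallothioneins, metal-binding proteins. Mt2 was at 2.73, 2.82 and 1.59 CPM in flox and 0.343, 0.834 and 0.328 CPM in mKO (-2.23 ± 0.39, adjusted p = 0.00373), and Mt1 at 22.6, 21.2 and 14.3 CPM in flox and 5.33, 9.91 and 6.49 CPM in mKO (-1.42 ± 0.23, adjusted p = 0.00236). They are close copies, so reads shared between them are uncertain. The ubiquitin ligases of atrophy did not pass: Fbxo32 was at 0.02 ± 0.23 and Trim63 at -0.00 ± 0.08. Klf15, a glucocorticoid-responsive factor, was the higher one at 0.39 ± 0.10, and its call was lost without any of 4 libraries (adjusted p up to 0.184). The call of Klf15 was also lost in the fit of only the reloading libraries. Of 33 proteasome genes none was called (median -0.02), and of 25 ribosome biogenesis and Myc target genes none was (median -0.01). Lower were 2 of 25 heat shock genes (Dnajb1 and Pdia3, 8%) and 2 of 20 ATF4 targets (Psat1 and Mthfd2, 10%), against 3.85% of all genes. The heat shock count was 8 without mKO replicate 2, 1 without flox replicate 2 or mKO replicate 1 and 0 without mKO replicate 3, and the ATF4 count was 0 without flox replicate 2 or mKO replicate 3. Each of these 4 genes lost the call without mKO replicate 3 (adjusted p up to 0.161).

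Some genes of the fibre lists were called higher, and their differences were small. Called higher were 4.35% of nuclear oxidative phosphorylation genes, 4.88% of TCA cycle and fatty acid oxidation genes and 7.69% of glycolysis genes. The shares were 9.09% for adult contractile genes and 16.7% for the 12 myofibre markers, against 1.06% of all genes tested. All 46 nuclear genes of oxidative phosphorylation were above 0, against 50.7% of all genes tested. They ran from 0.07 to 0.43 with a median of 0.26, but only 2 were called. These were Cox8b, a cytochrome oxidase subunit, at 94.3, 98.8 and 92.4 CPM in flox and 140, 102 and 126 CPM in mKO (0.37 ± 0.09, adjusted p = 0.0292), and Uqcrc1, of complex III, at 0.34 ± 0.09. The list's level relative to flox controls was -0.30, -0.35 and -0.34 in flox and 0.06, -0.32 and 0.00 in mKO. Replicate 2 of mKO thus stood at the flox level, and the other 2 at the control level. Without it 32 of the 46 genes were called higher and the median was 0.37, while no member was called without any of the other 5 libraries.

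Genes of the TCA cycle and fatty acid oxidation did the same. Of 41 genes 2 were higher (Suclg1 at 0.34 ± 0.08 and Idh3a at 0.33 ± 0.09). All 41 were above 0, against 50.7% of all genes tested, and the median was 0.29. Without mKO replicate 2 the count was 25, and without each of the other 5 it was 0 or 1. Of 26 glycolysis and glycogen genes 2 were higher, Pygm, muscle glycogen phosphorylase, at 0.45 ± 0.12 and the phosphorylase kinase subunit Phkg1 at 0.38 ± 0.08, and 8 were higher without mKO replicate 2. Pygm stood at 4397, 4551 and 5334 CPM in flox and 6826, 5688 and 6935 CPM in mKO.

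Of 33 adult contractile genes 3 were higher (median 0.25). Atp2a1, the calcium pump of fast fibres, was at 13370, 15520 and 18030 CPM in flox and 24270, 18410 and 24330 CPM in mKO (0.51 ± 0.14, adjusted p = 0.0437). Ckm was at 7802, 7705 and 8712 CPM in flox and 10340, 9532 and 11420 CPM in mKO (0.37 ± 0.09), and the fast troponin I gene Tnni2 at 0.31 ± 0.09. The count was 10 without mKO replicate 2, 4 without flox replicate 3 and 0 without each of the other 4. Myofibre markers summed to 136000 to 151000 CPM in flox and 152700 to 182400 CPM in mKO. CPM values are relative levels within a library, also after TMM scaling, and the part of RNA composition in these differences was not tested. Under total counts, the medians of the oxidative, TCA, glycolysis and contractile lists stayed above 0 at 0.12, 0.15, 0.10 and 0.11, but none of their members was called higher. Each call named in these 2 lists and the 2 before was lost without at least flox replicate 2 and mKO replicate 3, at an adjusted p of up to 0.221. Each was also lost in the fit of only the reloading libraries. Mitochondrially encoded transcripts had a median of 0.21 over 13 genes with none called.

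Single higher genes with larger or steadier differences came from several functions. Gadd45b, a stress and growth arrest gene, was at 9.26, 8.24 and 9.58 CPM in flox and 19.1, 17 and 28.6 CPM in mKO (1.26 ± 0.23, adjusted p = 0.00588). Its control and unloading means were 27.1 to 39 CPM in both genotypes, so the means of both reloading groups (9.03 CPM in flox and 21.6 CPM in mKO) lay below them. Rilp, a lysosome transport adaptor, was at 23.1, 21.7 and 28 CPM in flox and 35.1, 37 and 40.4 CPM in mKO (0.63 ± 0.11, adjusted p = 0.00481). Dmac2, an assembly factor of complex I, was at 29.7, 30.6 and 31.7 CPM in flox and 43, 36.9 and 41.4 CPM in mKO (0.40 ± 0.07, adjusted p = 0.00394). Rpl3l, the ribosomal protein paralogue of striated muscle, was at 371, 333 and 385 CPM in flox and 478, 448 and 522 CPM in mKO (0.41 ± 0.08, adjusted p = 0.00654).

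Cd274, the checkpoint ligand PD-L1, was at 3.28, 3.08 and 3.45 CPM in flox and 4.25, 6.16 and 5.9 CPM in mKO (0.74 ± 0.15), with mKO replicate 2 the highest. Col22a1, a collagen of the myotendinous junction, was at 0.68 ± 0.19, Col9a1 at 0.83 ± 0.18, Fer1l6 at 0.84 ± 0.19, Snph at 0.98 ± 0.23 and Pcnx2 at 1.54 ± 0.39. In the fit of only the reloading libraries Rpl3l, Cd274, Col22a1, Fer1l6, Snph and Pcnx2 were not called, and Gadd45b, Rilp, Dmac2 and Col9a1 were. Dmac2 and Rilp were called without each library. Gadd45b was lost without mKO replicate 3 (adjusted p = 0.0568), Col9a1 without flox replicate 2 (0.0769), Rpl3l and Cd274 without flox replicate 2 or mKO replicate 3 (up to 0.0585 and 0.0722), and the remaining 4 without any of 3 or 4 libraries (adjusted p up to 0.284 for Col22a1, 0.0932 for Fer1l6, 0.0965 for Snph and 0.142 for Pcnx2).

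Abundant genes called lower included Eef1a1, the translation factor of growing cells, at 568, 686 and 626 CPM in flox and 464, 415 and 387 CPM in mKO (-0.57 ± 0.09, adjusted p = 0.00236). Carhsp1, an RNA-binding protein, was at 26.8, 27.7 and 24.5 CPM in flox and 16.2, 18 and 15.8 CPM in mKO (-0.66 ± 0.08, adjusted p = 0.000408). Sprr1a, a small proline-rich protein of stressed tissue, had 59, 61 and 68 counts in flox and 6, 10 and 2 in mKO (-3.27 ± 0.58, adjusted p = 0.00697) and was lost without mKO replicate 3 (adjusted p = 0.0577). Endothelial genes included Pecam1, an adhesion molecule of vessels, at 103, 119 and 107 CPM in flox and 81.9, 80.8 and 72.6 CPM in mKO (-0.48 ± 0.07, adjusted p = 0.00138). Pecam1 and Esam were the 2 lower members of 14 endothelial markers (14.3%, against 3.85% of all genes), and the median was -0.23. Esam was lost without any of 4 libraries (adjusted p up to 0.219). Of the named genes called at reloading, 29 of 118 were called without each single reloading library.

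Most other cell type lists held no called gene. The exception was the Schwann cell list, with 1 lower of 12 (Egr2, given above) and a median of 0.19. That share was 8.33%, against 3.85% of all genes. Of 6 neutrophil markers tested (of 13 listed) none was called, with a median of -0.60 and sums of 2.672 to 5.317 CPM in flox and 1.965 to 2.745 CPM in mKO. None was called of 5 T and NK cell markers, 8 B and plasma cell markers, 12 dendritic and mast cell markers (median -0.50), 10 tendon markers, 11 smooth muscle and pericyte markers, 9 adipocyte markers or 6 erythrocyte markers. Their levels were low except in tendon, smooth muscle, adipocyte and erythrocyte lists, and a missed call at such levels does not show that a cell type was equal.

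**Figure D4:**
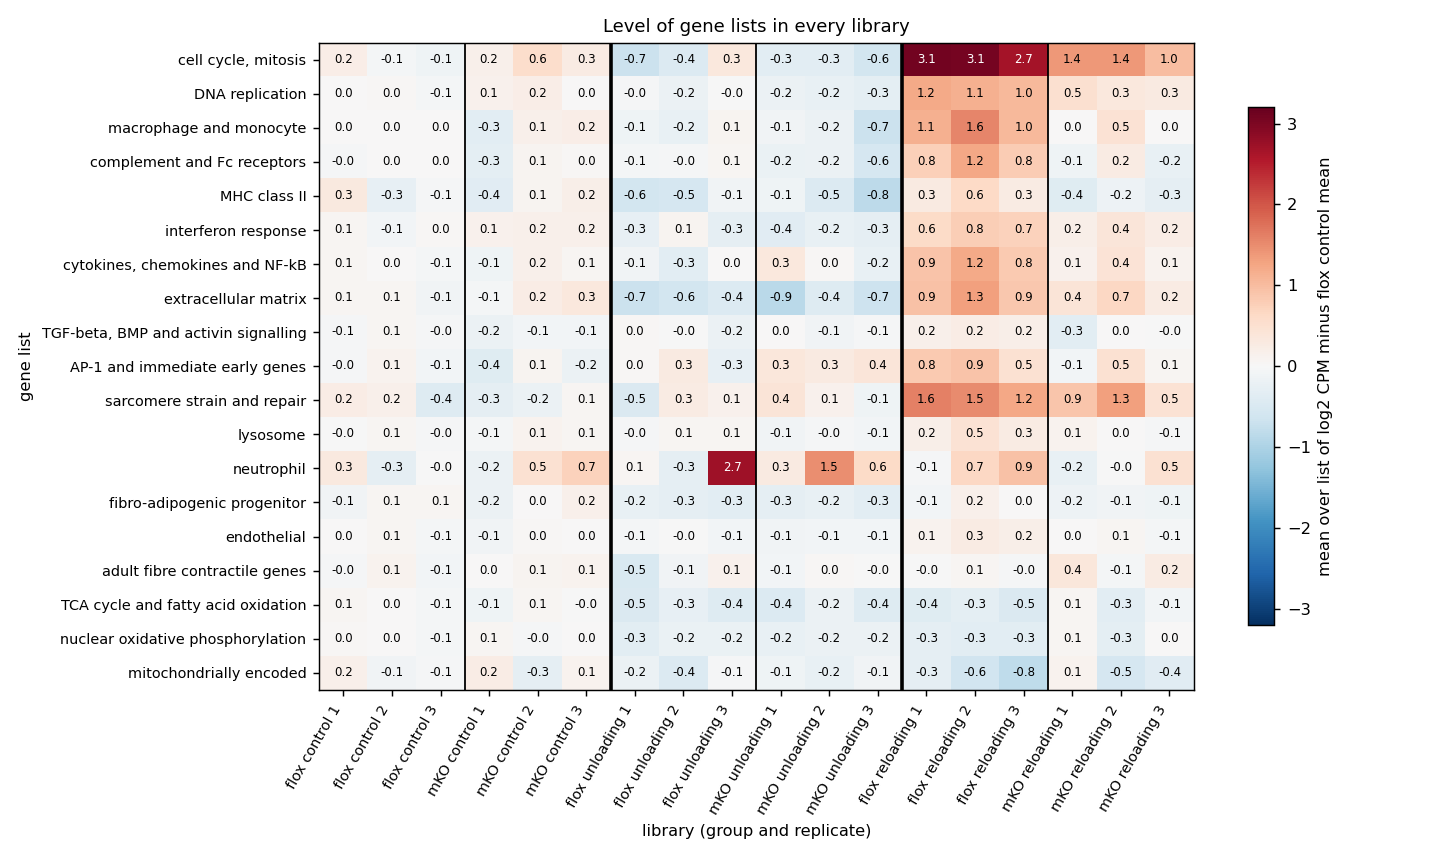
Mean log2 CPM of 19 gene lists in each of the 18 libraries (columns), relative to the mean of the flox controls. Flox reloading libraries are high for mitosis (3.09, 3.06 and 2.67) and macrophage lists (1.14, 1.56 and 1.04), mKO reloading libraries are lower for both (0.99 to 1.40 and 0.00 to 0.46), and mKO reloading replicate 2 resembles flox for oxidative phosphorylation.

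Before reloading no gene was called between the genotypes. At control no gene was called between mKO and flox by edgeR (718 at an unadjusted p under 0.05, and 0 by DESeq2), and at unloading none was (816, and 0 by DESeq2). With no filter on low counts 148 and 133 genes were called there. List medians were 0.25 at control and -0.12 at unloading for mitosis, -0.05 and -0.23 for macrophage markers, and 0.17 and -0.08 for matrix genes. Over the 38 lists they ran from -0.18 (sarcomere strain) to 0.59 (B and plasma cell) at control and from -0.76 (neutrophil) to 0.29 (adipocyte) at unloading. Prc1 had means of 1.41 and 1.56 CPM in flox and mKO controls and 1.43 and 1.36 CPM after unloading. Postn had means of 24.4 and 33 CPM in controls and 22 and 14.4 CPM after unloading. Set against their own controls, of which they share the libraries, 34 of 34 mitosis genes were higher in flox reloading and 4 of 34 in mKO reloading, with medians of 3.34 and 1.05. Over all genes 12.3% and 1.34% were called higher in these comparisons. Of 24 macrophage markers 18 and 1 were higher, with medians of 1.24 and 0.12. Of the 46 oxidative phosphorylation genes 27 were lower in flox reloading and 2 in mKO reloading than in their controls, where 10.3% and 0.841% of all genes were called lower.

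The difference between conditions was tested by interaction terms. The genotype difference at reloading differed from that at control for 93 genes (0.522%), 89 of them more negative (0.499%) and 4 more positive (0.0224%). Against the mean of control and unloading it differed for 178 genes (0.998%), 165 more negative (0.925%) and 13 more positive (0.0729%). Against unloading alone no gene passed by edgeR, with 1873 at an unadjusted p under 0.05 and 144 by DESeq2. Of the 34 mitosis genes 12 were called in the test against the mean, of 40 matrix genes 8, of 24 macrophage markers 6 and of 32 replication genes 6. The interaction against that mean was -1.68 ± 0.25 for Prc1 (adjusted p = 0.00975), -2.02 ± 0.36 for Postn (0.0188), -1.46 ± 0.32 for Cd68 (0.0414), -0.67 ± 0.12 for Vim (0.0188) and 0.45 ± 0.08 for Dmac2 (0.0251). Against unloading alone the smallest adjusted p was 0.0671. Genes at that value included Carhsp1 (-0.71 ± 0.11), Anln (-1.27 ± 0.23), Ptgs2 (-3.68 ± 0.66), Incenp (-1.10 ± 0.20) and Lbh (-0.82 ± 0.15). Counts of these tests fell to as few as 0 without single libraries. The count against control was 0 without flox reloading replicate 1 and 448 without mKO reloading replicate 2. It was 12 or fewer without any one of flox control replicates 1 to 3, mKO control replicates 2 and 3, flox reloading replicate 2 or mKO reloading replicates 1 and 3. The count against the mean was 0 without flox reloading replicate 2, 642 without mKO reloading replicate 2, 9 and 12 without mKO reloading replicates 3 and 1, and 49 without flox reloading replicate 1. Leaving out 1 of 9 control or unloading libraries gave 38 to 111. The count against the mean rose to 211 without mKO control replicate 1 and to 208 without flox unloading replicate 3. It was 217 without mKO unloading replicate 3 and 216 without flox reloading replicate 3. The count against control was 117 without mKO control replicate 1 and 124 without flox reloading replicate 3.

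**Figure D5:**
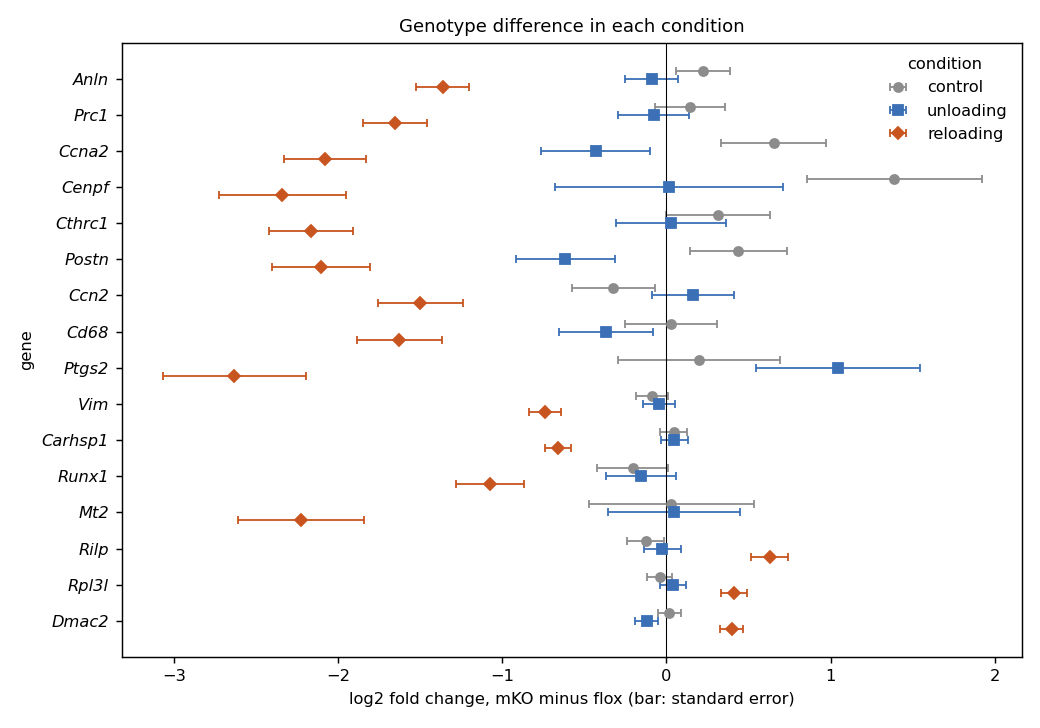
Log2 fold change of mKO minus flox with its standard error (x axis) for 16 genes (rows) at control, unloading and reloading. At reloading the lower genes lie between -2.63 (Ptgs2) and -0.66 (Carhsp1), and Rilp, Rpl3l and Dmac2 lie above 0, while no control or unloading value was called.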

How the data were processed

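RNA from mouse gastrocnemius was sequenced after polyA selection in 18 libraries, 3 in each of 6 groups by genotype and condition. The authors deposited raw read counts per gene. Per the submitters' processing notes, STAR 2.7.3a, GRCm38.p6 and featureCounts 2.0.3 were used. Per the file headers, the counting command was that of featureCounts 1.6.4 on Ensembl release 94, with no strand option. Antisense and overlapping genes and close copies are therefore uncertain. Tables of the authors' own DESeq2 comparisons were not used.

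Counts of 54532 genes were filtered with filterByExpr to 17833 and fitted with edgeR 4.0.16 (R 4.3.3, TMM factors, quasi-likelihood F test, 6 group means, 12 residual degrees of freedom). Benjamini-Hochberg adjusted p-values run over all genes tested. The standard error is the log2 fold change divided by the root of F. Depth was 45069595 to 51592566 counts a library. The labels do not say that replicates are separate animals. A p-value here weighs a difference against the spread between libraries of the same group, estimated over all 18 libraries. No library pair looked like a duplicate.

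The members and gene lists were chosen with earlier results of these data known. Named genes were called genes with at least 1 CPM and ranges that do not overlap: the 10 largest in each direction, the 6 smallest p-values and the 6 most abundant. Up to 4 called genes of each list were added, and the 2 most abundant where fewer than 2 were called. Other genes named were chosen after their values were seen. Alternatives were other scaling, filters, a replicate block, fewer groups, DESeq2 1.42.0 and leaving out each library. On simulated counts of 17486 genes the reloading comparison recovered 55.2% of 1.5-fold, 82.1% of 2-fold and 100% of 4-fold changes. The changed genes had a mean of at least 1 CPM, and no simulated library was shifted as a whole. These rates therefore do not cover genes at lower levels or an uneven library such as mKO replicate 2. Values of some genes are not reported here.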

Additional observations from a re-analysis of the deposited data

Results flagged for a closer look

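The genotype difference at reloading differed from that at control for 93 genes and from the mean of control and unloading for 178 genes, by edgeR interaction terms. Values below are interactions on the log2 scale, and their causes were not tested.

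Against control the most negative were Nxpe5 (-4.33), Srp54b (-4.01), Cenpf (-3.73), Ccnb1 (-3.67), Ccl8 (-3.57) and Ncapg (-3.42). Cenpf, Ccnb1 and the condensin subunit Ncapg act in mitosis, Ccl8 is a monocyte chemokine, and Nxpe5 and Srp54b have close copies, so their values are uncertain. The 4 positive genes were Myh13 (1.38), a myosin heavy chain known from eye muscles, Slc25a47 (0.87), Rilp (0.75) and Fastkd1 (0.6), which acts on mitochondrial RNA.

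Against the mean of control and unloading the most negative were Il1b (-5.03, on 52 counts in flox and 4 in mKO at reloading), Srp54b (-3.42), Nxpe5 (-3.29), Ptgs2 (-3.25), Cenpf (-3.04) and Cdc20 (-2.93). The most positive were Myh13 (1.08), Plet1os (1.06), Tmem136 (0.85), the growth factor antagonist Wfikkn2 (0.74), Rilp (0.7) and Slc25a47 (0.7). Plet1os is an antisense gene, whose reads cannot be told from those of its partner without strand.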

How the results depend on the processing

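The 875 genes called at reloading became 866 with RLE factors, 985 with a 1 CPM filter, 1485 with total counts, 1557 with no filter, 443 with only the compared groups and 1387 with DESeq2. Leaving out 1 library gave 127 to 1630. Replicate numbers did not pair the libraries (correlations of deviations -0.074, 0.021 and 0.1), and the replicate block called 986. No filter gave 148 genes at control and 133 at unloading. The interaction against control (93) became 284 with total counts, 755 with no filter, 158 with the 1 CPM filter, 143 with the replicate block, 420 with DESeq2 and 0 to 448 with 1 library out. Against unloading (0) it became 564 with no filter, 10 with the block, 144 with DESeq2 and 0 to 98 with 1 library out. Against the mean (178) it became 412 with total counts, 899 with no filter, 546 with DESeq2, 255 with the 1 CPM filter, 233 with the block and 0 to 642 with 1 library out. The fit of only the compared groups is for this last test the main fit. The cause of these moves was not tested.

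Zfp697 was between -0.74 and -0.53 in all alternatives and never called (adjusted p 0.09 to 0.449). Uncalled genes changed sign: with total counts Hbb-bs was at -0.02 and Hba-a1 at -0.1, and leaving out 1 library gave -0.05 to 0.26 for Hbb-bs, -0.21 to 0.25 for Hba-a1, -0.09 to 0.62 for Cd3e, -0.22 to 0.08 for Sdc4, -0.62 to 0.04 for Mmp9 and -0.33 to 0.63 for Cfd. Of the named genes called at reloading, 74 of 118 were called in each alternative that keeps all reloading libraries. Fold changes of genes with few counts, such as Il1b and Fcgr4, are limited by depth.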

Other observations

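Some genes outside the lists also differed at reloading, chosen after their values were seen. The muscle paralogues of translation genes were higher where the general forms were lower in mKO: Eef1a2 was at 0.49 ± 0.12 (adjusted p = 0.0233 by edgeR) and Eef1a1 at -0.57 ± 0.09, and Rpl3l was at 0.41 ± 0.08 and Rpl3 at -0.77 ± 0.12 (adjusted p = 0.00236). Paralogues share sequence, so reads that fit both are uncertain. Txnip, a glucose-responsive inhibitor of thioredoxin, was at 0.61 ± 0.15 (adjusted p = 0.0237 by edgeR). At control its genotype difference was 0.44 ± 0.15 and not called. Its edgeR interaction against control was 0.17 ± 0.21 (adjusted p = 0.792). Pdk2, a kinase that restrains pyruvate dehydrogenase, was at 0.46 ± 0.12 (adjusted p = 0.0369 by edgeR).

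Ifi208 had 0 counts in all 3 mKO reloading libraries and 0.551, 0.723 and 0.46 CPM in the flox reloading libraries, and it was low at control as well (0.222 CPM in flox and 0.035 CPM in mKO). Ifi genes form a family of close copies, and this value is uncertain.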
